A study of Mus musculus with 12 samples.

Results

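C-type lectin pattern receptors are the 7 listed genes Clec4e, Clec4d, Clec4n, Clec7a, Clec5a, Clec4a2 and Clec12a, and they were followed in mouse bone marrow-derived macrophages. Their probes were found through the transcript accession of each array probe. Of the 7 genes, 6 had a probe, with 1 probe each, out of 20887 genes named on the array. No probe carried an accession that the RefSeq table assigns to Clec7a, the β-glucan receptor, so Clec7a was not analysed here. Of the 6 genes, 5 passed the detection filter and were tested among 13118 genes. The exception was Clec5a, which was well above background on some LPS arrays only.

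The macrophages were grown from marrow for 5 to 7 days in macrophage colony-stimulating factor. The marrow came from male C57BL6 mice of 6 to 8 weeks that either lacked ERRα (ERRα-/-) or carried it (ERRα+/+). ERRα is an orphan nuclear receptor, encoded by Esrra, that drives genes of mitochondrial energy metabolism. The 4 groups, with 3 arrays each, were ERRα-/- cells with LPS at 100 ng/mL, ERRα+/+ cells with the same LPS, ERRα-/- cells with PBS as solvent and ERRα+/+ cells with PBS. LPS, a component of bacterial outer membranes, activates macrophages through TLR4. The source label of replicates 2 and 3 says cell line, while their cell type label gives marrow macrophages. The labels give neither the length of treatment, nor which part of Esrra was deleted, nor whether replicates came from separate animals, so p-values measure the spread between these samples.

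C-type lectin receptors read sugars and lipids on microbes and on dying cells. The activating ones, Clec4e (Mincle), Clec4d (MCL), Clec4n (the mouse Dectin-2 gene) and Clec5a (MDL-1), have no long signalling tail. They borrow the adaptor FcRγ, from Fcer1g, or DAP12, from Tyrobp, which recruits the kinase SYK and then the complex of CARD9, BCL10 and MALT1. Clec4a2 (DCIR) and Clec12a (MICL) carry inhibitory motifs that recruit the phosphatases SHP-1 and SHP-2. In macrophages, Clec4e is known as a receptor for mycobacterial cord factor that appears after microbial stimulation.

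All 7 genes lie on chromosome 6. The 250 bases before the RefSeq start of 3 of them are shown here with the GRCm38.p6 coordinates, because Clec4e and Clec4d rose with LPS whereas Clec4a2 did not. Capitals mark matches to GAGGAA (the core bound by PU.1 and other ETS factors) or to TTNNGNAA (C/EBP). Both strands were searched.
Clec4e, chr6:123289872-123290121, minus strand: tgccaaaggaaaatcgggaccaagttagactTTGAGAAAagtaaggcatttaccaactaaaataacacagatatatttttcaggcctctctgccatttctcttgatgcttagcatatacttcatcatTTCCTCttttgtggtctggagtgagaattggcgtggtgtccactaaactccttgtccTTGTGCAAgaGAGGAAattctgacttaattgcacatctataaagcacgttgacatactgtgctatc
Clec4d, chr6:123261857-123262106, plus strand: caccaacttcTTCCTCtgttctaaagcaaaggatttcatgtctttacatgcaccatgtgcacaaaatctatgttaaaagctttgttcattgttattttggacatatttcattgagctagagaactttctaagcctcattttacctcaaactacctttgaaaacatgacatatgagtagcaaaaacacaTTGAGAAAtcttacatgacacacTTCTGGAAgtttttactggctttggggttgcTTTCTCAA
Clec4a2, chr6:123122440-123122689, plus strand: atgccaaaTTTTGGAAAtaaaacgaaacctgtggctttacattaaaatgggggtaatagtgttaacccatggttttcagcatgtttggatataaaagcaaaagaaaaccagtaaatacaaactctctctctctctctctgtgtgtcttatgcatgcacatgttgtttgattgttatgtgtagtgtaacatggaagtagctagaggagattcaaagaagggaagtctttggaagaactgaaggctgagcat
In Clec4e, a C/EBP match that begins 66 bases before the start lies next to a GAGGAA match that begins 56 bases before it. The matches of TTNNGNAA in Clec4a2 overlap each other. Of the 6 genes with a window in the table, 5 held GAGGAA, all but Clec4a2, and 5 held TTNNGNAA, all but Clec7a. None of the 6 held the NF-kB form, GGG and CC parted by any 5 bases, or AAGGTCA, the core of the ERR response element. Among all 32851 windows of this length, GAGGAA occurred in 23.3%, TTNNGNAA in 36.8%, the NF-kB form in 45.8% and AAGGTCA in 4.08%. A match describes letters and not a bound site. The table has no window for Clec4n.

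The share of probes well above background ran from 45.3% to 56.7% per array, and none was saturated. The median coefficient of variation over repeated spots was 11.6% and 7.83% on ERRα+/+ PBS replicates 2 and 3. On the other arrays it was 3.33% to 4.23%. The effect of this difference on the results was not tested. Replicate 1 of every group was on slide 1, and replicates 2 and 3 were on slide 2, which was scanned at another time. The second principal component, with 10.0% of the variance, parted the slides. Levels are log2 processed signal relative to the 75th percentile of the array, and they compare arrays for 1 probe, not genes with each other. Esrra ranged from 3.83 to 4.40 in ERRα-/- LPS, 5.87 to 6.36 in ERRα+/+ LPS, 0.15 to 2.48 in ERRα-/- PBS and 4.39 to 4.68 in ERRα+/+ PBS arrays. Averaged over treatments it was -2.84 ± 0.36 in ERRα-/- relative to ERRα+/+ cells (limma adjusted p = 0.00379), and a probe outside the deleted stretch would not check the labels. All 9 macrophage markers with a probe, among them Csf1r and Adgre1, were well above background on every array. Of 11 neutrophil markers, 9 to 11 were so on all 3 arrays of a group, and their summed linear levels ran from 321 to 497 in ERRα-/- LPS, 267 to 536 in ERRα+/+ LPS, 234 to 288 in ERRα-/- PBS and 308 to 445 in ERRα+/+ PBS arrays. The sums were led by the brightest probes, S100a9 and S100a8, with mean log2 levels of 8.09 and 6.31 in ERRα-/- LPS arrays. They say little about the dimmer markers. Neutrophils and monocytes also express several of these lectins, and the part of such cells in the results was not tested. In such bulk samples, fewer cells of a type and less RNA per cell cannot be told apart.

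**Figure D1:**
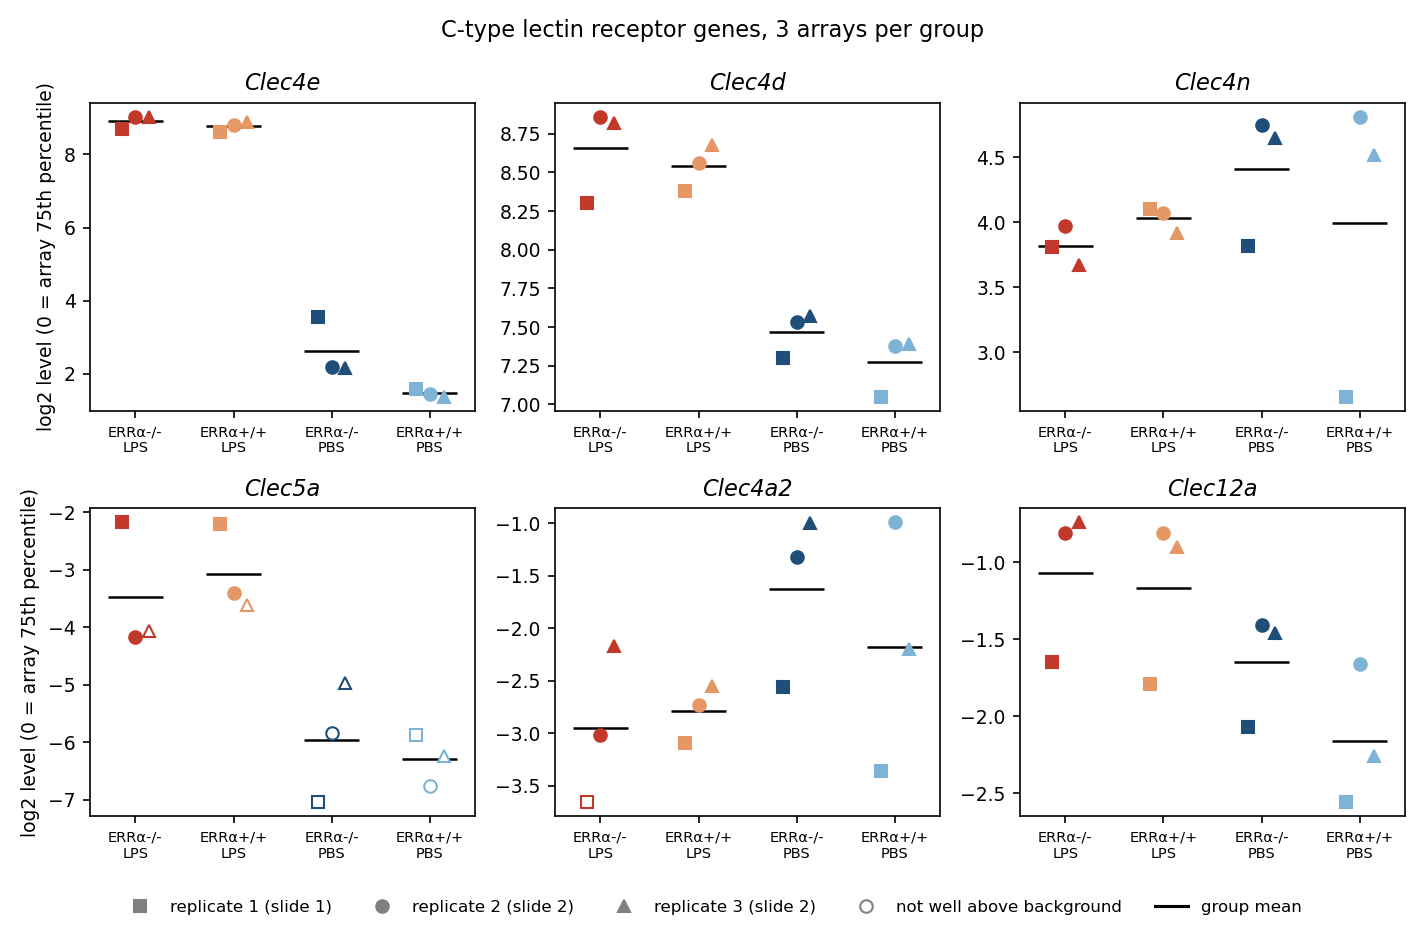
Log2 level (0 is the 75th percentile of the array) of the 6 measured genes on each array, by group, with the group mean as a line and 1 symbol per replicate; open symbols were not well above background, and each panel has its own scale. Clec4e lies between 8.62 and 9.03 on LPS arrays and between 1.38 and 3.55 on PBS arrays.

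Among the 5 tested members, LPS raised Clec4e, the cord factor receptor gene, far more than the others, and it raised its neighbour and partner gene Clec4d moderately, in both genotypes. In total, 2 of the 5 tested members rose in ERRα-/- cells and 3 in ERRα+/+ cells, and none fell (limma, adjusted p under 0.05). Over all genes tested, 25.1% rose and 25.3% fell with LPS in ERRα-/- cells, and 22.2% rose and 23.7% fell in ERRα+/+ cells. The median log2 difference of the 5 members was 0.58 in ERRα-/- and 1.00 in ERRα+/+ cells, against 0.05 and 0.02 over all genes. The detection filter asks for a signal well above background on each array of some group; 4 of the members met it in all 4 groups, and Clec4a2 in all but ERRα-/- LPS.

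Clec4e encodes Mincle. It read 8.69, 9.02 and 9.03 in ERRα-/- LPS cells and 8.62, 8.81 and 8.90 in ERRα+/+ LPS cells. It read 3.55, 2.20 and 2.16 in ERRα-/- PBS cells and 1.60, 1.45 and 1.38 in ERRα+/+ PBS cells, in the order of replicates 1 to 3. All LPS arrays were far above all PBS arrays, and every array was well above background. The rise was 6.28 ± 0.32 on the log2 scale (SE, n = 3 per group), or 77.8-fold, in ERRα-/- cells (limma adjusted p = 1.08e-06). It was 7.30 ± 0.32, or 158-fold, in ERRα+/+ cells (limma adjusted p = 3.23e-07). By size it ranked 43 among 13118 genes in ERRα-/- and 23 in ERRα+/+ cells. Without each array in turn, the rise was 6.05 to 6.74 in ERRα-/- and 7.24 to 7.38 in ERRα+/+ cells, always called. The order of the groups was ERRα-/- LPS, ERRα+/+ LPS, ERRα-/- PBS and ERRα+/+ PBS, and the 2 LPS groups overlapped. The genes whose centred profile over the 12 arrays was nearest were Traf1, an adaptor of TNF receptors, the cytokine gene Tnf and the chemokine gene Ccl5. Their root mean square differences from Clec4e were 0.39, 0.41 and 0.42 log2 units.

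Clec4d encodes MCL, which pairs with Mincle at the cell surface. It read 8.30, 8.86 and 8.82 in ERRα-/- LPS cells and 8.38, 8.56 and 8.68 in ERRα+/+ LPS cells. Under PBS it read 7.30, 7.53 and 7.57 in ERRα-/- cells, against 7.05, 7.38 and 7.39 in ERRα+/+ cells. LPS and PBS arrays did not overlap. The rise was 1.19 ± 0.19, or 2.28-fold, in ERRα-/- cells (limma adjusted p = 0.000551) and 1.27 ± 0.19, or 2.41-fold, in ERRα+/+ cells (limma adjusted p = 0.000429). Each of the 3 replicates showed it, from 1.00 to 1.33 in ERRα-/- and from 1.18 to 1.34 in ERRα+/+ cells. Within both treatments the genotypes overlapped. The nearest profiles were those of Diaph2, 1700049L16Rik and Ciao2b, at 0.10 to 0.12 log2 units, against 2.83 for Clec4e.

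Clec4n encodes Dectin-2, a receptor for fungal mannans. It read 3.81, 3.97 and 3.67 in ERRα-/- LPS cells and 4.10, 4.07 and 3.92 in ERRα+/+ LPS cells. Under PBS it read 3.82, 4.75 and 4.65 in ERRα-/- cells and 2.66, 4.81 and 4.52 in ERRα+/+ cells. On slide 2 the LPS arrays were all below the PBS arrays. On slide 1 the ERRα+/+ PBS array was the lowest of all 12 arrays. Over all arrays the differences were -0.59 ± 0.47 in ERRα-/- cells (limma adjusted p = 0.322) and 0.03 ± 0.47 in ERRα+/+ cells (limma adjusted p = 0.962). Within slide 2 they were -0.88 (limma adjusted p = 0.00176) and -0.67 (limma adjusted p = 0.00608), where 72.3% of all genes were called in ERRα+/+ cells. Within slide 1, with 1 array per group and no test, they were -0.01 and 1.44. The ERRα+/+ sign turned with quantile normalization (-0.29), with normexp correction and without ERRα+/+ PBS replicate 1 (-0.64). The nearest profiles, at 0.25 to 0.28 log2 units, were those of Mideas, Tgs1 and Scn4b.

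Clec5a encodes MDL-1, a receptor that signals through DAP12. It read -2.18, -4.17 and -4.07 in ERRα-/- LPS cells and -2.21, -3.40 and -3.61 in ERRα+/+ LPS cells, and replicates 1 and 2 of each were well above background. Under PBS it read -7.04, -5.84 and -4.97 in ERRα-/- cells and -5.88, -6.75 and -6.24 in ERRα+/+ cells, and no array was well above background. All LPS arrays were higher than all PBS arrays. Relative to the dimmest well-above-background probes of the PBS arrays, Clec5a under LPS was 2.49-fold higher in ERRα-/- and 3.31-fold in ERRα+/+ cells. The LPS means behind these folds include replicate 3, which was not well above background at -4.07 and -3.61. Because this probe could fail detection at those levels, the folds are not firm lower bounds. In a fit of all 20887 named genes without the detection filter, the limma adjusted p of Clec5a was 0.0169 in ERRα-/- and 0.00504 in ERRα+/+ cells.

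The inhibitory receptor genes moved less than Clec4e, as the activating receptor genes Clec4d and Clec4n also did. Clec4a2, which encodes DCIR, read -3.66, -3.02 and -2.17 in ERRα-/- LPS cells and -3.09, -2.73 and -2.55 in ERRα+/+ LPS cells. Under PBS it read -2.56, -1.32 and -1.0 in ERRα-/- cells and -3.36, -0.99 and -2.20 in ERRα+/+ cells. LPS and PBS arrays overlapped in both genotypes, and replicate 1 of ERRα-/- LPS was not well above background. The difference of LPS from PBS was -1.33 ± 0.60 in ERRα-/- cells (limma adjusted p = 0.0877) and -0.60 ± 0.60 in ERRα+/+ cells (limma adjusted p = 0.433). With the replicate number as a block, the ERRα-/- value, lower in 3 of 3 replicates by 1.1 to 1.70, was called (limma adjusted p = 0.0164), where 63.7% of all genes were called. Leaving out 1 array gave -1.79 to -0.97 in ERRα-/- cells, called without ERRα-/- PBS replicate 1 or ERRα+/+ PBS replicate 1, and -1.19 (without ERRα+/+ PBS replicate 1) to -0.01 (without ERRα+/+ PBS replicate 2) in ERRα+/+ cells, never called. With normexp background correction the ERRα-/- difference was -0.55 (limma adjusted p = 0.319). The nearest profiles were those of Man1a, Gm4013 and Camk1d, at 0.38 to 0.40 log2 units.

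Clec12a encodes MICL, a brake on myeloid cells that senses uric acid crystals. It read -1.65, -0.81 and -0.74 in ERRα-/- LPS cells and -1.79, -0.81 and -0.90 in ERRα+/+ LPS cells. Under PBS it read -2.07, -1.41 and -1.46 in ERRα-/- cells, against -2.56, -1.66 and -2.26 in ERRα+/+ cells. The LPS array was the higher one in each replicate of each genotype, although the groups overlapped across slides. The rise was called in ERRα+/+ cells, at 1.00 ± 0.35 (limma adjusted p = 0.0405), but not in ERRα-/- cells, at 0.58 ± 0.35 (limma adjusted p = 0.201). With the replicate block the ERRα-/- value was called too (limma adjusted p = 0.0095). The ERRα+/+ call ended with normexp background correction (0.53, limma adjusted p = 0.147), without the detection filter, and when ERRα+/+ LPS replicate 2 or 3, ERRα-/- PBS replicate 2 or 3, or ERRα+/+ PBS replicate 1 or 3 was left out (limma adjusted p up to 0.139). The nearest profiles were those of Psme4, Exosc3 and Tnpo3, at 0.14 to 0.20 log2 units, and Clec4d lay at 0.35.

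**Figure D2:**
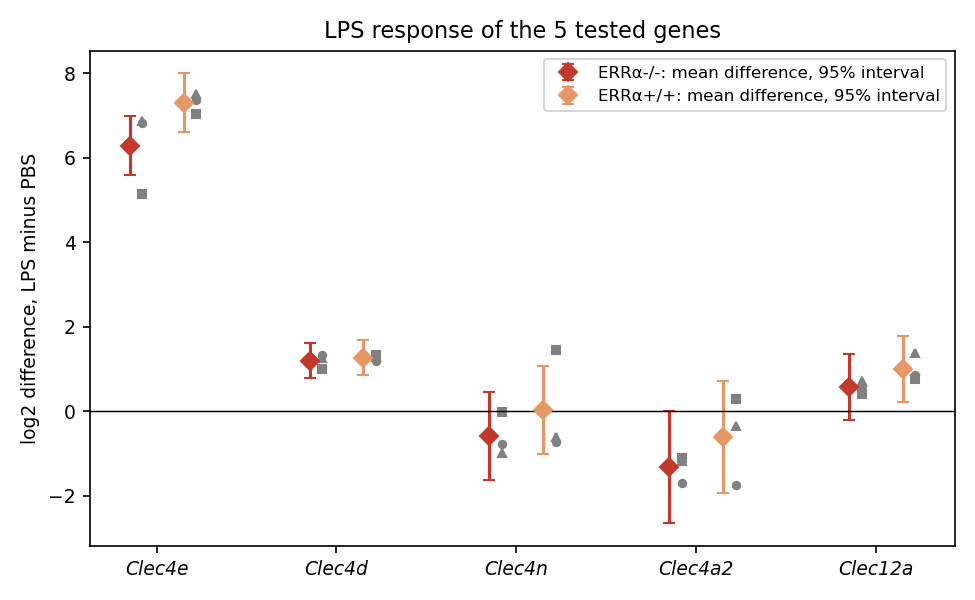
Log2 difference of LPS from PBS (vertical axis) for the 5 tested genes in ERRα-/- and ERRα+/+ cells; diamonds with bars are the fitted difference and its 95% interval, and small grey symbols are the differences within replicates 1 (square), 2 (circle) and 3 (triangle). Clec4e stands at 6.28 and 7.30, Clec4d at 1.19 and 1.27, and the intervals of Clec4n include 0 in both genotypes.

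The genes of the Clec4 family stand side by side on chromosome 6, in the order Clec4a1, Clec4a3, Clec4a4, Clec4b1, Clec4a2, Clec4b2, Clec4n, Clec4d and Clec4e in the GRCm38.p6 annotation. All 9 were tested. In ERRα-/- cells LPS raised 2 of them and lowered 1, and in ERRα+/+ cells it raised 3 and lowered 2. Of all genes tested, 25.1% rose and 25.3% fell in ERRα-/- cells, and 22.2% and 23.7% in ERRα+/+ cells. Clec4e, at the end of the row, moved by 6.28 in ERRα-/- and 7.30 in ERRα+/+ cells, and Clec4d beside it by 1.19 and 1.27. Clec4b1 fell by 1.41 in ERRα-/- cells (limma adjusted p = 0.00299) and by 1.09 in ERRα+/+ cells (limma adjusted p = 0.0125), the second call ending without ERRα+/+ PBS replicate 2 or 3. Clec4a1 rose in ERRα+/+ cells by 1.24 ± 0.35 (limma adjusted p = 0.0151), a call that ended with quantile normalization (limma adjusted p = 0.0658) and without ERRα+/+ LPS replicate 3, and the rise was 0.71 without ERRα+/+ PBS replicate 1. It differed by 0.70 in ERRα-/- cells (limma adjusted p = 0.124). Members of this family resemble each other in sequence, and cross-hybridization of their probes was not tested. A further row of 10 genes from Clec2d to Olr1 holds Clec12a and Clec7a. Of its 6 tested genes 3 were called higher in each genotype, Cd69 and Olr1 in both. Clec9a joined them in ERRα-/- cells and Clec12a in ERRα+/+ cells. Olr1 passed the detection filter only through the LPS groups, so its call is no independent support for a rise.

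**Figure D3:**
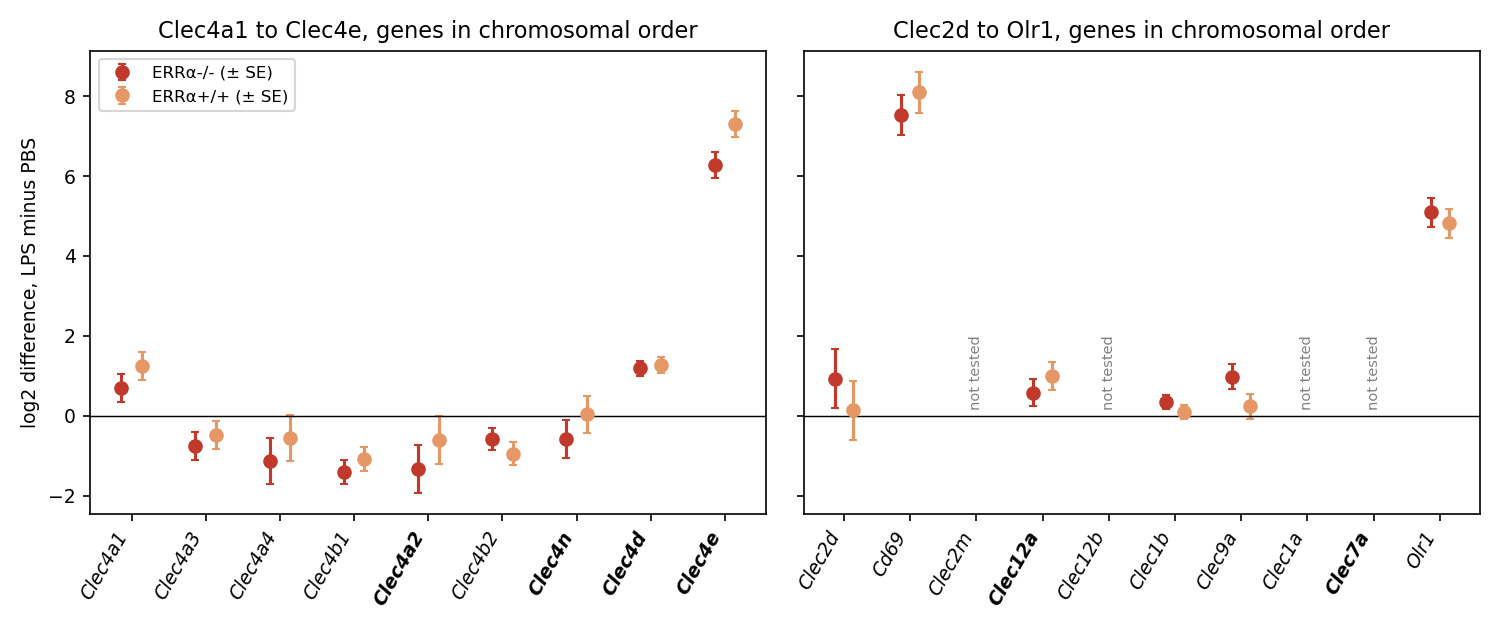
Log2 difference of LPS from PBS (± SE) in ERRα-/- and ERRα+/+ cells for genes in their order along chromosome 6, evenly spaced, with listed members in bold and genes without a tested probe marked. In the left row Clec4e stands far above the other genes, while Clec4d (1.27) and Clec4a1 (1.24) are alike in ERRα+/+ cells. In the right row Cd69 and Olr1 stand above the other genes.

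Among 37 other C-type lectin genes 23 were tested. With LPS, 3 rose and 5 fell in ERRα-/- cells and 4 rose and 7 fell in ERRα+/+ cells, with medians of -0.20 and -0.36. Of all genes tested, 25.1% rose and 25.3% fell in ERRα-/- cells, and 22.2% and 23.7% in ERRα+/+ cells. The lectin counts include Olr1 and Cd207, which passed the detection filter only through groups where they were highest. Cd69, an early activation antigen of leukocytes, rose by 7.53 ± 0.51 in ERRα-/- (limma adjusted p = 4.07e-06) and 8.10 ± 0.51 in ERRα+/+ cells (limma adjusted p = 2.48e-06). Olr1, the receptor for oxidized LDL, was well above background on no PBS array and passed the detection filter only through the LPS groups. It was called higher with LPS in ERRα-/- (limma adjusted p = 5.65e-06) and in ERRα+/+ cells (limma adjusted p = 7.16e-06). Because of how it passed the filter, its test is no independent support for a rise. Relative to the dimmest well-above-background probes of the PBS arrays, Olr1 under LPS was 16.9-fold higher in ERRα-/- and 22.5-fold in ERRα+/+ cells. These folds, on the scale of the processed signal, are not firm lower bounds for Olr1. With normexp correction its fitted differences were 2.34 in ERRα-/- and 2.44 in ERRα+/+ cells, against 5.09 and 4.82 without it. Clec2i, a ligand gene of NK cell receptors, fell by 1.57 ± 0.55 in ERRα-/- (limma adjusted p = 0.0352) and by 2.11 ± 0.55 in ERRα+/+ cells (limma adjusted p = 0.01). Its ERRα-/- call ended with normexp correction, without the detection filter, and without replicate 2 or 3 of ERRα-/- LPS or ERRα-/- PBS (limma adjusted p up to 0.114). Clec9a, a dendritic cell receptor for actin of dead cells, rose by 0.98 ± 0.32 in ERRα-/- cells (limma adjusted p = 0.0263). That call ended without the filter, without ERRα-/- LPS replicate 2 or 3 and without ERRα-/- PBS replicate 1 or 3 (limma adjusted p up to 0.0974). The scavenger lectin gene Colec12 fell by 1.16 in ERRα-/- cells (limma adjusted p = 0.0124) and by 1.52 in ERRα+/+ cells (limma adjusted p = 0.00337). With normexp correction these were -0.31, no longer called (limma adjusted p = 0.144), and -0.76, and the ERRα-/- call also ended without ERRα-/- LPS replicate 2. Cd207, the langerin gene, was well above background on no LPS array. It passed the detection filter only through ERRα+/+ PBS, the group where it was highest. Its test is therefore no independent support for a fall. In ERRα+/+ cells it was called lower with LPS (limma adjusted p = 0.000969), and not with normexp correction (-0.21, limma adjusted p = 0.514). Its ERRα+/+ PBS mean was 1.44-fold above the dimmest well-above-background probes of the ERRα+/+ LPS arrays, which is not a firm lower bound.

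Genes of the signalling chain below these receptors moved in both directions. Of 19 adaptor and proximal signalling genes 9 rose and 2 fell in ERRα-/- cells, and 10 rose and 2 fell in ERRα+/+ cells, with medians of 0.46 and 0.64. The shares over all genes were 25.1% rising and 25.3% falling in ERRα-/- cells, and 22.2% and 23.7% in ERRα+/+ cells. Malt1, the protease of the CARD9 complex, rose by 4.06 ± 0.39 in ERRα-/- and 3.60 ± 0.39 in ERRα+/+ cells (limma adjusted p = 3.49e-05 and 6.6e-05). Lyn, a SRC family kinase gene, rose by 1.89 ± 0.33 in ERRα-/- and 2.11 ± 0.33 in ERRα+/+ cells (limma adjusted p = 0.00101 and 0.000602). Card9 itself fell by 1.14 ± 0.29 in ERRα-/- and by 1.05 ± 0.29 in ERRα+/+ cells (limma adjusted p = 0.00746 and 0.0129), the second call ending without ERRα+/+ LPS replicate 2 or 3. With normexp correction it fell by 0.45 and by 0.60. Inpp5d, the gene of the lipid phosphatase SHIP-1, fell by 2.87 ± 0.52 and by 2.70 ± 0.52 (limma adjusted p = 0.0012 and 0.0019). Fcer1g, the adaptor of Clec4e, Clec4d and Clec4n, rose by 0.67 ± 0.16 in ERRα-/- and 0.64 ± 0.16 in ERRα+/+ cells (limma adjusted p = 0.00509 and 0.00739), and both calls ended with quantile normalization, at 0.23 and 0.32. Tyrobp, the adaptor of Clec5a, was not called, with differences of -0.11 and 0.07 (limma adjusted p = 0.78 and 0.868).

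Of 11 transcription factor genes known in myeloid cells or in inflammation, 7 rose and 2 fell with LPS in ERRα-/- cells, and 8 rose and 2 fell in ERRα+/+ cells. The shares over all genes were 25.1% rising and 25.3% falling in ERRα-/- cells, and 22.2% and 23.7% in ERRα+/+ cells. Tfec rose by 2.75 in ERRα-/- and 3.21 in ERRα+/+ cells, and Nfkb1 by 2.54 and 3.05. Cebpd had a difference of 2.01 ± 0.77 in ERRα-/- cells (limma adjusted p = 0.0507, and 0.00118 with the replicate block, which called it). It rose by 2.82 ± 0.77 in ERRα+/+ cells (limma adjusted p = 0.0128), and by 1.85 without ERRα+/+ PBS replicate 1. Cebpb, known to be needed for Mincle induction in mouse macrophages, rose by 2.21 ± 0.48 in ERRα-/- cells (limma adjusted p = 0.00347) and by 1.73 ± 0.48 in ERRα+/+ cells (limma adjusted p = 0.0133), the second call ending without ERRα+/+ LPS replicate 2 or 3. Cebpa fell by 3.58 ± 0.61 in ERRα-/- and by 2.77 ± 0.61 in ERRα+/+ cells (limma adjusted p = 0.000876 and 0.00407). Of 5 tested genes of endogenous ligands 1 rose in each genotype, namely Lgals9, the gene of galectin-9, by 2.46 ± 0.39 in ERRα-/- and 2.41 ± 0.39 in ERRα+/+ cells (limma adjusted p = 0.00058 and 0.000725). The other 4 were not called, among them Sap130, a nuclear protein that Mincle binds on dead cells, with 0.01 in ERRα-/- and -0.13 in ERRα+/+ cells.

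Loss of ERRα was then compared within each treatment, which asks whether the receptor changes these genes. No member was called by limma under LPS, under PBS or averaged over both, while 0.13%, 0.427% and 1.36% of all genes were. Those shares are 17, 56 and 178 genes, and they ranged from 3 to 42, 3 to 81 and 84 to 260 when 1 array was left out. With the replicate block they were 132, 193 and 499. At an unadjusted p under 0.05, no member passed under LPS, and 1, Clec4e, passed under PBS and averaged. Of all 13118 genes tested, 819 passed that limit under LPS, 863 under PBS and 1236 averaged. Under LPS the differences of ERRα-/- from ERRα+/+ cells were small for Clec4e (0.14, 95% interval -0.56 to 0.84) and Clec4d (0.12, interval -0.30 to 0.53), and both turned sign with quantile normalization, to -0.01 and -0.04. For Clec4n, Clec4a2 and Clec12a they were -0.21, -0.16 and 0.10, with intervals from -1.26 to 0.83, -1.49 to 1.16 and -0.69 to 0.88. These intervals allow differences of either sign, so they do not show equal levels. Clec5a, from the fit without the filter, differed by -0.40 (interval -1.85 to 1.04), with replicate 3 of both LPS groups not well above background.

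Among the tested members, only resting Clec4e parted the genotypes without overlap. The share of all genes that did so under PBS was not counted, so the lack of overlap alone does not set Clec4e apart. All 3 ERRα-/- PBS arrays of Clec4e lay above all 3 ERRα+/+ PBS arrays, at 2.16 to 3.55 against 1.38 to 1.60. The difference was 1.16 ± 0.32 (interval 0.46 to 1.86), or 2.23-fold. Adjusted over all genes it missed the threshold (limma adjusted p = 0.247, and 0.167 with the replicate block). Within replicates it was 1.95, 0.75 and 0.78, and replicate 1, on slide 1, had the largest. Within slide 2 it was 0.76 (limma adjusted p = 0.00484), where 9.54% of all genes were called, and the value averaged over treatments was 0.47 (limma adjusted p = 0.00365), where 20.4% were called. These fits rest on 2 arrays per group. Without ERRα-/- PBS replicate 1 the PBS difference was 0.70 (limma adjusted p = 0.192). The other members had PBS differences of 0.19 for Clec4d, 0.41 for Clec4n, 0.56 for Clec4a2 and 0.52 for Clec12a, each with overlapping groups and limma adjusted p = 1. Within replicates Clec4d was higher in ERRα-/- cells in 3 of 3, by 0.14 to 0.25, and Clec12a in 3 of 3, by 0.25 to 0.81. With the replicate block their limma adjusted p was 0.551 and 0.181, and with normexp correction the differences were 0.07 and 0.19.

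The LPS response itself was not called different between genotypes for any member by limma; 1, Clec4e, had an unadjusted p under 0.05. Over all genes, 0 of 13118 (0%) were called and 294 had an unadjusted p under 0.05. Clec4e had the smaller response in ERRα-/- cells, by -1.02 ± 0.45 (interval -2.01 to -0.03, limma adjusted p = 1), and replicates gave -1.88, -0.53 and -0.64. Within slide 2 the value was -0.59 (limma adjusted p = 0.0408), where 4.22% of genes were called. The LPS levels of Clec4e in both genotypes overlapped while the PBS levels did not. For Clec4d the difference of responses was -0.07 (interval -0.66 to 0.51), and for Clec4n, Clec4a2 and Clec12a it was -0.62, -0.72 and -0.42 with limma adjusted p = 1 each. In ERRα-/- cells within slide 2, all 5 members were called for LPS, as were 73.7% of all genes.

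**Figure D4:**
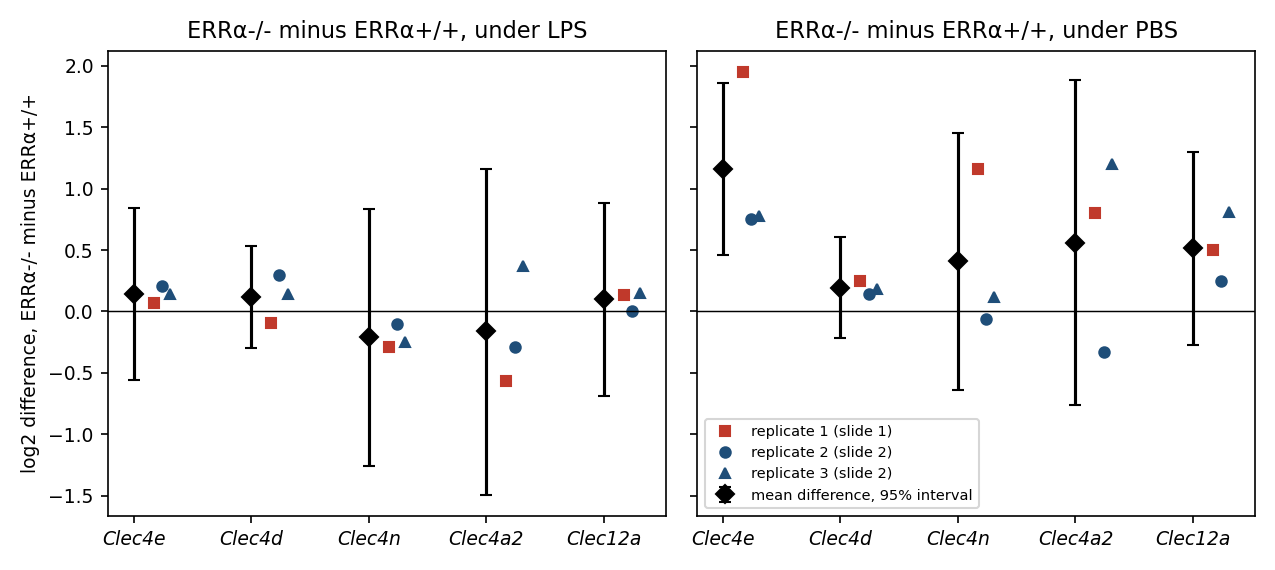
Log2 difference of ERRα-/- from ERRα+/+ cells (vertical axis) for the 5 tested genes under LPS (left) and PBS (right); diamonds with bars are the fitted difference and its 95% interval, and coloured symbols are replicates. Under PBS all 3 replicates of Clec4e lie above 0, at 0.75 to 1.95, and under LPS at 0.07 to 0.21.

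Of 23 other C-type lectin genes tested, 1 was called between genotypes, both averaged over treatments and under PBS. The shares over all genes tested were 1.36% and 0.427%. Clec1b, the gene of the platelet receptor CLEC-2 that binds podoplanin, read 1.41, 1.25 and 1.25 in ERRα-/- LPS cells and 2.30, 2.37 and 2.27 in ERRα+/+ LPS cells. Under PBS it read 1.19, 0.76 and 0.93 in ERRα-/- cells, against 2.32, 2.46 and 1.90 in ERRα+/+ cells, with no overlap under either treatment. The share of all genes without overlap was not counted, so the lack of overlap alone does not set Clec1b apart. It was lower in ERRα-/- cells by -1.14 ± 0.12 averaged over treatments (limma adjusted p = 0.00269), called under all 22 alternatives. Those include the authors' deposited table, which holds the same values and so could not differ. Under PBS the difference was -1.26 ± 0.17 (limma adjusted p = 0.0215), a call that ended without the filter and without ERRα-/- PBS replicate 2 or 3 or ERRα+/+ PBS replicate 2 (limma adjusted p up to 0.123). Under LPS it was -1.01 ± 0.17 (limma adjusted p = 0.0605, and 0.0272 with the replicate block, which called it). None of the markers of other cell types was called between genotypes averaged over treatments. The megakaryocyte markers Pf4 and Itga2b had differences of -0.56 ± 0.14 and -1.09 ± 0.26 (limma adjusted p = 0.114 and 0.0882), and the erythroid marker Hba-a1 of -1.12 ± 0.31 (limma adjusted p = 0.158). Hbb-bs and Klf1 were above background on no array. The summed linear level of the erythroid and megakaryocyte marker list was 100.0 to 109 in ERRα-/- LPS, 143 to 204 in ERRα+/+ LPS, 63.2 to 68.8 in ERRα-/- PBS and 73.2 to 116 in ERRα+/+ PBS arrays. That sum was led by Pf4, with mean log2 levels of 6.68, 7.33, 6.01 and 6.48 in the same order of groups. Other lists had negative medians for ERRα-/- against ERRα+/+ cells too, at -0.87 over 5 tested stromal and endothelial markers, -0.57 over 3 of mast cells and basophils and -0.50 over 11 of neutrophils. The medians were 0.13 over 9 macrophage, -0.04 over 6 lymphoid, -0.06 over 4 monocyte and -0.12 over 9 dendritic cell markers. The part of other cells in the Clec1b difference was not tested.

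**Figure D5:**
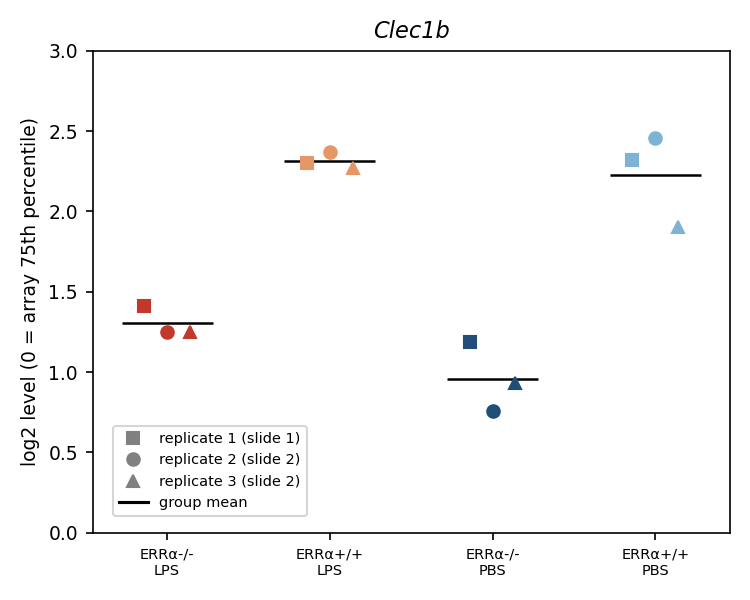
Log2 level of Clec1b (0 is the 75th percentile of the array) on each array, by group, with the group mean as a line and 1 symbol per replicate. The ERRα-/- arrays lie between 0.76 and 1.41 and the ERRα+/+ arrays between 1.90 and 2.46.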

How the data were processed

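RNA of 12 macrophage samples was labelled with Cy3 and measured on 1-colour Agilent arrays. The labels name another array format for replicate 1 than for replicates 2 and 3, the same split as the slides, but all files hold the same design. The deposited intensity values were made by the authors with Agilent Feature Extraction 11.5.1.1, per the file headers (the submitters' processing notes name 9.3.2.1). The processed signal intensity is background-subtracted and detrended within each array, per the file headers. The authors' deposited table of intensity equalled it at all 62976 spots of each array. Flags of 0 or 1 mark spots above background or outlying, per the file headers.

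Control and outlier spots were left out and spots of each probe averaged. The 55681 probes were scaled as log2 signal minus the array's 75th percentile; 27509 were named through RefSeq accessions (GRCm38.p6), giving 20887 genes. Kept probes exceeded background clearly on each of the 3 arrays of some group, and the brightest kept probe stood for a gene. The fit was limma 3.58.1 in R 4.3.3 on all 12 arrays, 1 mean per group, with Benjamini-Hochberg adjustment over 13118 genes and a threshold of 0.05; adjusted p-values come from it unless another fit (no filter, block, slide 2, an array left out) is named beside them. Scripts were tested on simulated data with independent noise, no slide effect and changes added only to the ERRα+/+ LPS arrays. That test does not measure error rates of the genotype comparisons on these slides.

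Members, gene lists and motifs were chosen with earlier results of these data known. Named were all members, up to 3 called rises and 3 called falls per list and comparison, genes a result turned on, and the 3 nearest profiles per member. Fcer1g, Tyrobp, Sap130, Pf4, Itga2b and the chromosomal neighbours were named after their values were seen. Deviations from group means of same-numbered arrays correlated at 0.144 to 0.784, every pair over 0.1. The replicate numbers (#2 and #3 in the sample titles, 1 where unnumbered) served as assumed pairs in the replicate block. Arrays of different number on the same slide correlated at 0.129 to 0.556. These correlations therefore cannot tell pairing from a shared slide, and the labels state no pairing. Alternatives were background correction, quantile normalization, filters, probe averaging, slide and replicate blocks, slide 2 alone, array weights and each array left out. The authors' deposited table, which holds the same values, was counted among them. The number of arrays limits precision. The search for protein motifs was not done, and some genes of the lists are not reported here.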

Additional observations from a re-analysis of the deposited data

How the results depend on the processing

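Called members numbered 3 for LPS in ERRα+/+ cells, 2 for LPS in ERRα-/- cells and 0 in the 4 genotype comparisons. For LPS in ERRα-/- cells, the count was 4 with slide as a block and with the replicate block, and 5 within slide 2 and with array weights. Within slide 2, 1 member was called between genotypes under PBS, 1 averaged over treatments and 1 for the difference of LPS responses. With array weights it was 1 under PBS and 2 averaged. Calls over all genes grew as well: for LPS in ERRα-/- cells 65.5% were called with slide as a block and 80.5% with array weights, and array weights called 9.04% under PBS and 20.1% averaged. Pairing by the replicate block changed no other call of a member. Over 654 member values under alternatives, 601 kept direction and call, 8 lost the call, 18 gained it and 27 changed sign. Over 1026 values of other named genes, these were 960, 43, 19 and 4. These totals include the authors' deposited table, which equals the signal used here at every spot. They also include probe averaging, which leaves the level of a member with 1 probe unchanged. Agreement of the members under these settings was fixed or nearly fixed in advance and is no check.

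The sign changes were as follows, all for uncalled main differences except Cd207. With normexp correction, Clec4n was -0.15 and Clec1b -0.10 for LPS in ERRα+/+ cells, Cd207 was 0.07 for LPS in ERRα-/- cells, Clec4a2 was 0.03 between genotypes under LPS, and the difference of LPS responses of Clec4d was 0.01. With quantile normalization, Clec4n was -0.29 and Clec1b -0.05 for LPS in ERRα+/+ cells, and Clec4d was -0.04 and Clec4e -0.01 between genotypes under LPS. That scaling moved the median of all genes to -0.151 from 0.052 for LPS in ERRα-/- cells and to -0.142 from 0.018 in ERRα+/+ cells. Within slide 2, Clec4n was -0.67 for LPS in ERRα+/+ cells and -0.07 between genotypes averaged, Clec4a2 was 0.04 between genotypes under LPS, and the response difference of Clec4d was 0.06. With array weights these 4 values were -0.50, -0.01, 0.02 and 0.04.

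With 1 array left out, Clec4n ranged from -0.64 to 0.44 and Clec1b from -0.08 to 0.20 for LPS in ERRα+/+ cells. Between genotypes under LPS, Clec12a ranged from -0.22 to 0.39 and Clec4a2 from -0.55 to 0.19. Under PBS, Clec4a2 ranged from -0.03 to 1.16 and Clec4n from -0.26 to 0.81. Averaged, they ranged from -0.10 to 0.50 and from -0.24 to 0.30. The response difference ranged from -0.18 to 0.11 for Clec4d and from -1.03 to 0.05 for Clec4n. The cause was not tested. Of the 6 genes with a probe, Clec5a and Clec4a2 were dim on some arrays, which limits their precision.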

Other observations

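Clec4d, Clec4a2 and Clec12a were each lowest on the slide 1 array of all 4 groups. Clec12a there read -1.65 in ERRα-/- LPS, -1.79 in ERRα+/+ LPS, -2.07 in ERRα-/- PBS and -2.56 in ERRα+/+ PBS cells. Clec4e was lowest on slide 1 under LPS and highest on slide 1 under PBS, in both genotypes.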
